A study of Mus musculus with 6 samples.

Results

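Saa1, Saa2, Saa3, Lbp, Hp, Lcn2 and Lrg1 encode secreted proteins of the acute phase, and their UMI counts were followed across the cell types of the lower abdominal muscle (LAM) in 3 wild-type (WT) and 3 Arom mice. The 7 genes, of 16494 in the count table, were chosen for their levels across cell types and between the genotypes of these same samples. Their levels and genotype differences are therefore given as a description, with no test, and tests are given only for other genes. All 6 animals were male FVB/N mice aged 9 to 10 weeks. Arom mice carry the human aromatase gene CYP19A1 under its own promoters, an enzyme that converts androgens to estrogens, and the labels give their condition as scrotal hernia. WT mice were controls without the transgene. The tissue was digested with collagenase II and Dispase II, passed through a filter that held back multinucleated fibers, and sequenced as single cells by droplet RNA-Seq. Each animal gave 1 library, and each level below is that of a cell type in 1 mouse.

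The acute phase is the change in secreted proteins that follows injury, infection or inflammation, and is best known from the liver. IL-6 family cytokines act through gp130 and STAT3, IL-1 and TNF act through NF-kB, and C/EBP factors act beside both on acute-phase genes. Serum amyloid A1 and A2 (Saa1, Saa2) are carried on high-density lipoprotein, whereas serum amyloid A3 (Saa3) in the mouse is made mainly outside the liver, among others by macrophages and adipose tissue. Lbp hands bacterial lipopolysaccharide to CD14 and TLR4. Haptoglobin (Hp) binds free hemoglobin, lipocalin 2 (Lcn2) binds the iron carriers of bacteria, and Lrg1 is a leucine-rich glycoprotein that modulates TGF-beta signaling in endothelium.

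In the GENCODE annotation of GRCm38, the 3 serum amyloid genes lie together on chromosome 7, with Saa3 at chr7:46711998-46715700 on the minus strand, Saa1 at chr7:46740497-46742980 on the minus strand, and Saa2 at chr7:46751790-46754313 on the plus strand. Lcn2 lies at chr2:32384633-32388252 on the minus strand and Lbp at chr2:158306493-158332852 on the plus strand. Hp lies at chr8:109575128-109579172 and Lrg1 at chr17:56119678-56122001, both on the minus strand. RefSeq promoters of GRCm38.p6, from 250 bases before to 50 bases after the start, were at hand for 5 of the 7 genes. Those of the serum amyloid genes are shown because Saa1 and Saa2 are near-copies of each other and Saa3 is not, and because Saa3 had another pattern across cell types than Saa1. The sequences run 5′ to 3′ on the strand of the gene, from chr7:46742931-46743230 for Saa1, chr7:46751583-46751882 for Saa2 and chr7:46715627-46715926 for Saa3, and capitals mark a match to the C/EBP-type motif TTNNGNAAT, here read on the opposite strand.
Saa1: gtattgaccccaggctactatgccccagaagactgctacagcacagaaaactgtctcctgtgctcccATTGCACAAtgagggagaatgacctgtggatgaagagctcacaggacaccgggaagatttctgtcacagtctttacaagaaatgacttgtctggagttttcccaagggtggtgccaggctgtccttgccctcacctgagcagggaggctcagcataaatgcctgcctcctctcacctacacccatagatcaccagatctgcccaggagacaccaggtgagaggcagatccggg
Saa2: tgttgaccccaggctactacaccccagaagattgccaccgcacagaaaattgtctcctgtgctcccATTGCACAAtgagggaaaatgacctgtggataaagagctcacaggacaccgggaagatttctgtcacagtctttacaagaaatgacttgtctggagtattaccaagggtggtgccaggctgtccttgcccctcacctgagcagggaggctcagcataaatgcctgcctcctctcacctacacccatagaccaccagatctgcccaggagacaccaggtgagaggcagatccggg
Saa3: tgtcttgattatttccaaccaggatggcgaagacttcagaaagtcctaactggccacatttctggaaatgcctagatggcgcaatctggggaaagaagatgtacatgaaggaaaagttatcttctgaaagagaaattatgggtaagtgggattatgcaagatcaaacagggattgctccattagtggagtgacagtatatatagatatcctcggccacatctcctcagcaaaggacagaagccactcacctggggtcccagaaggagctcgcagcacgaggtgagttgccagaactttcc

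The promoters of Saa1 and Saa2 were identical at 287 of 301 aligned positions (95.35%), against 54.24% for Saa1 and Saa3 and 54.02% for Saa2 and Saa3. The last 300 bases of the transcripts, close to where this chemistry reads, were 92.41% identical between Saa1 and Saa2, so reads may have been divided between them in a way that cannot be checked here. The same stretch was 47.9% identical between Saa1 and Saa3 and 48.88% between Saa2 and Saa3. The C/EBP-type match began 183 bases before the start in Saa1 and 184 bases before it in Saa2, and no such letters were found in the windows of Saa3, Lcn2 or Lrg1. Of 27025 mouse promoters of the same length, 11.6% held this motif on either strand. The letters of a STAT motif (TTCNNNGAA, 8.466% of promoters), an NF-kB motif (GGGNNTTTCC, 1.621%) and an estrogen response element (GGTCANNNTGACC, 0.0666%) were in none of the 5 windows on either strand. TATAAA on the strand of the gene, present in 8.881% of promoters, was found in the window of Lrg1 and in none of the other 4. In Lrg1 it began at base 12 after the start, so it lay downstream of the start used here.

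The table held 63647 barcodes, and cells were grouped again from the counts, without the 7 genes and without the pathway genes tested below. Fibroblast-like cells (23042 cells, Pdgfra, Col1a1 and Mfap4), endothelial cells (16392, Pecam1 and Cdh5) and mesothelial cells (2706, Msln and Upk3b) were named from their markers. Total UMIs were 64958237 to 72876541 in WT and 92652109 to 111826460 in Arom libraries, with a median of 4728.5 to 5897 UMIs per barcode in WT and 6673 to 8727 in Arom. CYP19A1 had 0 UMIs in each WT library and 770 to 797 in each Arom library. Mitochondrial UMIs exceeded 5% in 38.0%, 68.2% and 40.1% of barcodes of WT1, WT2 and WT3 and in 27.6% to 30.9% of those of Arom mice. Of the barcode sequences, 471 were shared by libraries. Arom3 stood apart from Arom1 and Arom2 for most of the 7 genes, and values with and without it are given.

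Mesothelium is the single-cell lining of the abdominal cavity. The mesothelial markers summed to 6530 to 10090 CPM (UMIs per 1000000 UMIs of that cell type in that mouse) in mesothelial cells and to 11.8 to 48.9 CPM in fibroblast-like cells. Fibroblast markers reached 16560 to 20630 CPM in mesothelial cells, against 46270 to 52960 CPM in fibroblast-like cells. Macrophage markers summed to 32.5 to 91.03 CPM and neutrophil markers to at most 1.37 CPM in mesothelial cells, with Csf3r at 0. Mesothelial cells made up 1.446%, 1.590% and 0.8602% of the barcodes of WT1, WT2 and WT3 and 5.378%, 7.258% and 7.506% of those of Arom1, Arom2 and Arom3, so that all 3 Arom mice lay above all 3 WT mice. They numbered 147, 172 and 68 in WT and 646, 999 and 674 in Arom mice.

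Among whole cell types, Saa3 had its highest level in the mesothelial cells of 2 Arom mice. Its level there was 23.3, 2.20 and 1.07 CPM in WT1, WT2 and WT3 and 14296, 11130 and 10.9 CPM in Arom1, Arom2 and Arom3. Arom1 and Arom2 lay far above every WT mouse, Arom3 lay below WT1, and the genotypes overlapped. The fitted log2 fold change (Arom over WT, edgeR) was 9.98 ± 2.24 (SE, 3 mice per genotype) and 10.56 ± 0.75 without Arom3. The marker sum of mesothelial cells in Arom3, 9671 CPM, was higher than in Arom1 (8430 CPM) and Arom2 (6530 CPM), so the low Saa3 of Arom3 was measured in cells that carried the mesothelial markers.

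In fibroblast-like cells, the level of Saa3 was 2.43, 2.38 and 1.85 CPM in the 3 WT mice and 458, 675 and 10.1 CPM in Arom1, Arom2 and Arom3. Every Arom mouse was above every WT mouse, but Arom3 was near the WT mice. The fit gave a log2 fold change of 7.42 ± 1.47 (SE), or 8.004 ± 0.24 without Arom3. Mesothelial cells of Arom1 and Arom2 thus had a higher Saa3 level than their fibroblast-like cells, whereas in WT2, WT3 and Arom3 the levels of both cell types were within a few CPM of each other.

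**Figure D1:**
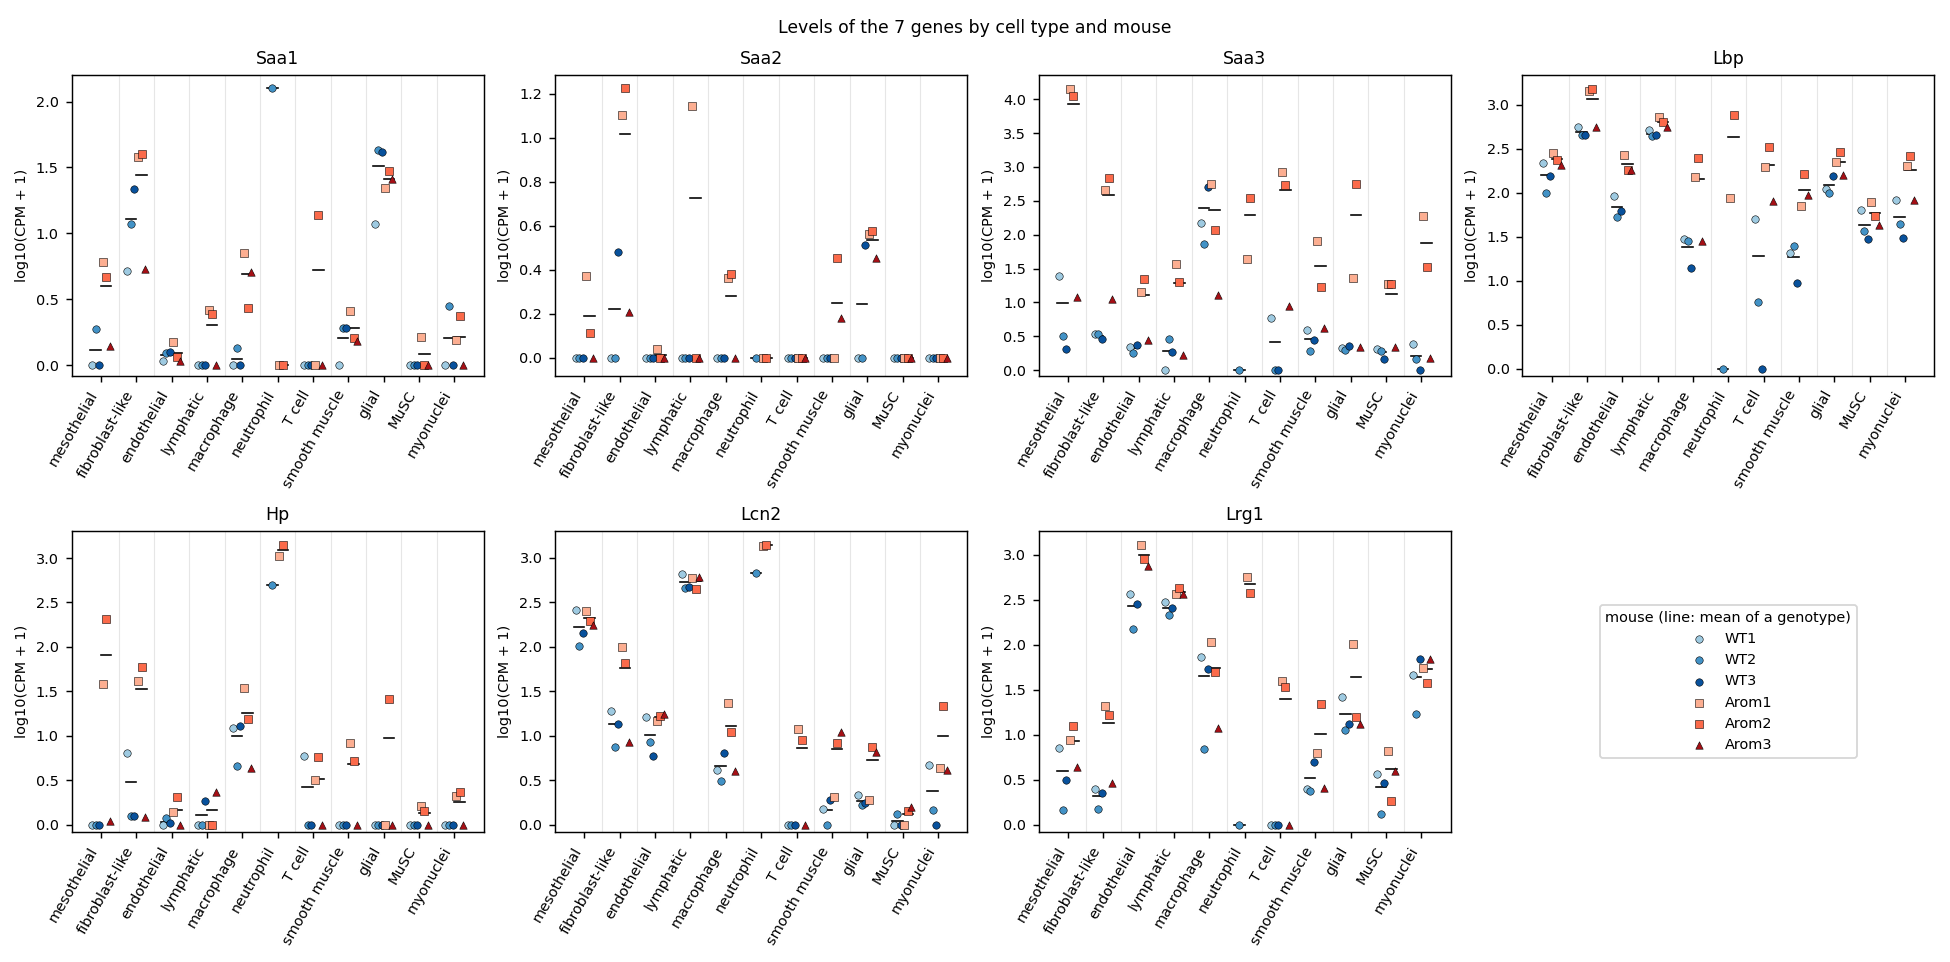
Levels of the 7 genes (y axis, log10 of CPM + 1) in each cell type (x axis) with at least 10 cells in a mouse, where circles are WT mice, squares Arom1 and Arom2, triangles Arom3, and lines the mean of a genotype. Saa3 in mesothelial cells reached 14296 and 11130 CPM in Arom1 and Arom2 and 10.9 CPM in Arom3.

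The difference was present in most mesothelial cells of the 2 mice. At least 1 Saa3 UMI was found in 7.48%, 2.33% and 1.47% of mesothelial cells of WT1, WT2 and WT3 and in 93.5%, 89.2% and 6.53% of those of Arom1, Arom2 and Arom3. The median cell held 78.5 UMIs in Arom1, 39 in Arom2 and 0 in the other 4 mice. The 100 UMI mark was reached by 45.5% of mesothelial cells in Arom1, by 36.1% in Arom2 and by no cell in the other mice. The highest single cell held 2207 UMIs in Arom1, 2327 in Arom2 and 9 in Arom3.

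Depth differed between libraries and cell types, so cells were also compared after thinning each to 1000 UMIs. The thinned share of mesothelial cells with a Saa3 UMI was 1.61%, 0.369% and 0.0402% in WT and 84.5%, 73.9% and 1.10% in Arom1, Arom2 and Arom3. In fibroblast-like cells it was 0.164%, 0.158% and 0.179% in WT and 8.42%, 8.24% and 0.346% in Arom mice. Endothelial cells, taken here as the level that free RNA gives, were at 0.120%, 0.0711% and 0.180% in WT and 1.44%, 2.08% and 0.224% in Arom mice (0.547%, 0.4345% and 0.8926%, then 5.152%, 6.214% and 1.067%, before thinning). Median depth was 3995 UMIs in endothelial, 9964 in fibroblast-like and 10890 in mesothelial cells. The shares of fibroblast-like cells in WT were near this background, and those of Arom1 and Arom2 were above it.

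A second measure set Saa3 against the mesothelial markers Msln and Upk3b in the same cells. There were 4.32 and 4.66 Saa3 UMIs for each Msln or Upk3b UMI in the mesothelial cells of Arom1 and Arom2, and 5.24 and 2.98 in their endothelial cells. In fibroblast-like cells the ratio was 116 and 179, and in Mmp3-high hernia-associated fibroblasts (HAFs), a fibroblast group named after the matrix metalloproteinase Mmp3, it was 749 and 805. Saa3 in the Mmp3-high HAFs of Arom1 and Arom2 thus went with few mesothelial UMIs. In fibroblast-like cells that fell in no named group the ratio was 0.19 and 0.438, below that of mesothelial cells. In endothelial cells it was near the mesothelial ratio, but rested on 25 and 48 Msln or Upk3b UMIs. Macrophages of Arom1 and Arom2 had 150 and 36.7, and T cells 14.3 and 7.56.

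Among fibroblast-like cells, Mmp3-high HAFs had the highest Saa3 level in Arom1 and Arom2. Their level was 1.02 CPM in WT1 and 2.28 CPM in WT3 and 1632, 2265 and 31.4 CPM in Arom1, Arom2 and Arom3. WT2 had only 6 such cells and is given no level, and WT3 and Arom3 had 35 and 52. The group joined unlike clusters. One of 810 cells was led by Saa3, Megf6 and Lrrc15, and one of 1131 cells by Tspan8, Epyc and Lgr5. Another of 1144 cells was led by Lrg1, Sectm1a and Cxcl13, with Saa2 and Hp also among its leading genes. The part of each cluster in the levels of the 7 genes in this group was not tested. In Arom1 and Arom2, 53.0% and 65.5% of Mmp3-high HAFs held no Saa3 UMI at all, while 6.68% and 6.63% held 100 or more. The level in Arom1, Arom2 and Arom3 was 405, 245 and 22.8 CPM in Dmkn-high fibroblasts and 155, 151 and 0.467 CPM in Esr1-high HAFs, the group richest in the estrogen receptor gene Esr1. It was 110, 148 and 12.8 CPM in cluster 0 fibroblasts (Tppp3, Smoc2) and 12.1, 19.0 and 14.5 CPM in the remaining fibroblast-like cells. Of the cluster 0 fibroblasts, 267 were in a cluster led by interferon-response genes such as Ifit1 and muscle genes such as Acta1. Without these cells, a choice made after the values were seen, cluster 0 fibroblasts had 122, 105 and 12.9 CPM. The order from Mmp3-high HAFs to the remaining cells was the same in Arom1 and Arom2, and Arom3 did not share it. The levels of Arom3 rested on few cells. There, 1 cell held 17 of the 23 UMIs of Mmp3-high HAFs, 1 cell 155 of the 173 of Dmkn-high fibroblasts, and 1 cell 130 of the 216 of cluster 0 fibroblasts. A further group of 1789 cells with tenocyte markers is not compared, since 329 of them were in a cluster led by the endothelial genes Cldn5 and Gpihbp1.

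**Figure D2:**
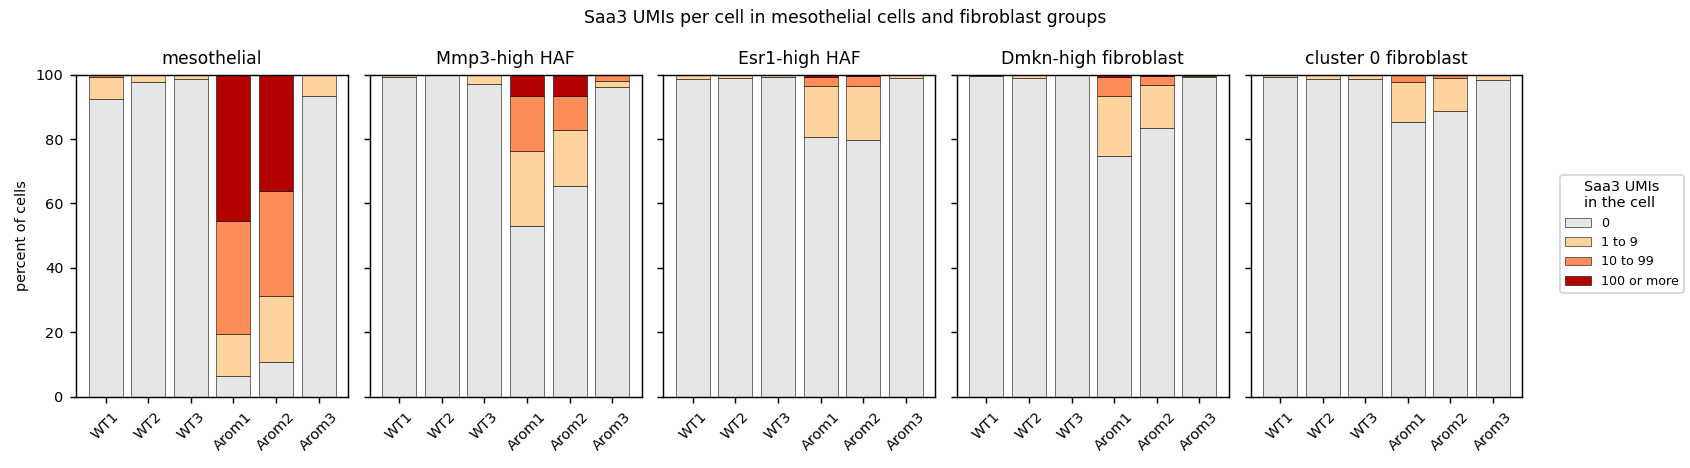
Percent of cells (y axis) in each mouse (x axis) that held 0, 1 to 9, 10 to 99 or 100 or more Saa3 UMIs, in mesothelial cells and in 4 groups of fibroblast-like cells. In Arom1 and Arom2, 45.5% and 36.1% of mesothelial cells and 6.68% and 6.63% of Mmp3-high HAFs held 100 or more.

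The makeup of the fibroblast-like cells moved with genotype and with Arom3. Mmp3-high HAFs were 12.16%, 0.239% and 2.142% of fibroblast-like cells in WT1, WT2 and WT3 and 17.23%, 24.94% and 1.469% in Arom1, Arom2 and Arom3. Cluster 0 fibroblasts were 31.6%, 44.1% and 41.9% in WT and 24.6%, 16.7% and 39.4% in Arom mice, and Esr1-high HAFs 10.1%, 6.73% and 8.08% in WT and 28.9%, 26.9% and 19.5% in Arom mice. Cluster 0 fibroblasts were the most numerous of these groups in the 3 WT mice and in Arom3, and Esr1-high HAFs in Arom1 and Arom2. The part of this shift in the levels summed over all fibroblast-like cells was not tested. The levels within each group are given beside the summed ones for this reason, but a group can itself differ in makeup. A cluster led by Ahsg, Fetub and Cxcl3 held 6, 2 and 3 of the cluster 0 fibroblasts in WT1, WT2 and WT3. In Arom1, Arom2 and Arom3 it held 437, 391 and 132 of them. The part of this cluster in the levels of cluster 0 fibroblasts was not tested.

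In WT mice, most Saa3 UMIs were in macrophages and monocytes. These cells held 71.5%, 66.8% and 86.2% of the Saa3 UMIs of WT1, WT2 and WT3, out of 537, 310 and 651 UMIs. In Arom1 and Arom2, with 158290 and 199510 UMIs, mesothelial cells held 73.8% in each, fibroblast-like cells 19.1% and 24.1%, and macrophages 4.07% and 0.368%. In Arom3, with 707 UMIs, fibroblast-like cells held 70.6% and mesothelial cells 15.7%. Few cells carried the UMIs of the WT mice and of Arom3. A Saa3 UMI was found in 4.85%, 1.69% and 6.72% of 371, 295 and 119 macrophages of WT1, WT2 and WT3 and in 1.469% of the fibroblast-like cells of Arom3, where 2 cells alone held 155 and 130 of the 499 UMIs of that cell type.

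The Saa3 level in macrophages was 149, 73.0 and 511 CPM in WT and 562, 115 and 11.9 CPM in Arom mice, and the genotypes overlapped. Within macrophages its highest levels were in a cluster of 40 cells led by Alox15, Cd5l and Marco, genes of resident macrophages, at 1501 CPM in WT1 and 36735 CPM in Arom1. The other mice had under 10 cells of this cluster. T cells held 4.89, 0 and 0 CPM in WT and 835, 540 and 7.86 CPM in Arom mice, beside fibroblast markers that summed to 4221, 214.2 and 5275 CPM in WT and 22450, 15840 and 4765 CPM in Arom mice. The mesothelial markers Msln and Upk3b together had 27, 45 and 0 UMIs in the T cells of Arom1, Arom2 and Arom3. The part of fibroblast and of mesothelial RNA in the level of T cells was not tested.

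Saa1 had higher levels in the fibroblast-like and glial sums than in mesothelial cells. In fibroblast-like cells it was at 4.17, 10.7 and 20.7 CPM in WT1, WT2 and WT3 and at 37.0, 38.7 and 4.33 CPM in Arom1, Arom2 and Arom3. Arom1 and Arom2 were above all WT mice, and Arom3 lay between WT1 and WT2. On the log2 scale the fitted change was 1.23 ± 0.84 (SE), or 1.77 ± 0.50 without Arom3. In WT mice most Saa1 UMIs of fibroblast-like cells were in 1 cluster of 390 cells, described below. It held 92 of 134 in WT1, 181 of 256 in WT2 and 276 of 347 in WT3. In glial cells Saa1 was at 10.7, 42.1 and 40.8 CPM in WT and 21.2, 28.8 and 25.1 CPM in Arom mice, with all Arom values inside the WT range. Of the glial cells, 289 were in a cluster led by Grp, Tenm2 and Cldn1. Its median was 10477 UMIs, against 2387.5 and 3620 in the other glial clusters, and its part in the glial level was not tested. Mesothelial cells held 0, 0.878 and 0 CPM in WT and 5.02, 3.63 and 0.391 CPM in Arom mice.

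Among the 5 fibroblast groups compared, Saa1 was highest in Mmp3-high HAFs in Arom1 and Arom2 and in cluster 0 fibroblasts in the WT mice and Arom3. In Mmp3-high HAFs it was at 2.04 and 0 CPM in WT1 and WT3 and at 123, 116 and 2.73 CPM in Arom mice. In Dmkn-high fibroblasts it was at 2.02, 0.339 and 0 CPM in WT and 32.2, 36.6 and 0.264 CPM in Arom mice. Cluster 0 fibroblasts had 11.8, 22.7 and 44.4 CPM in WT and 13.3, 14.9 and 9.92 CPM in Arom mice, and the ranges overlapped. In WT mice and Arom3 this level was carried by a cluster of 390 cells led by 6030408B16Rik, Col9a2 and Dlk1, which held 88.5%, 80.1% and 93.9% of the Saa1 UMIs of cluster 0 fibroblasts in WT and 19.5%, 14.9% and 74.9% in Arom mice. Its level was 252, 363 and 382 CPM in WT and 130, 95.0 and 172 CPM in Arom mice, where every Arom mouse was below every WT mouse. Without it, a choice made after the values were seen, the other cluster 0 fibroblasts had 1.42, 4.77 and 3.05 CPM in WT and 10.9, 13 and 2.61 CPM in Arom mice. These are not the same cells in both genotypes. The cluster led by Ahsg, Fetub and Cxcl3, nearly absent from WT mice, held 62.3%, 57.0% and 5.39% of the Saa1 UMIs of cluster 0 fibroblasts in Arom mice and 0% in WT. When all cells were clustered, 352 of the 390 cells fell in a cluster of 932 cells led by Lypd2, Sfrp5 and Cldn1, which had 98.5, 154 and 172 CPM in WT and 43.0, 40.4 and 97.1 CPM in Arom mice. Fibroblast-like cells held 78.4%, 59.4% and 65.6% of Saa1 UMIs in WT and 93.2%, 95.0% and 78.2% in Arom mice, and glial cells 11.1%, 29.2% and 30.6% in WT and 0.917%, 1.07% and 14.9% in Arom mice.

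Saa2 was the sparsest of the 7 genes, with 2060 UMIs in all. It had 0 UMIs in WT1 and WT2, where 3 UMIs would be the limit that such a count allows, 47 in WT3, and 823, 1155 and 35 in Arom1, Arom2 and Arom3. In fibroblast-like cells its level was 0, 0 and 2.03 CPM in WT and 11.7, 15.8 and 0.625 CPM in Arom mice, so that Arom3 lay below WT3. The highest levels in Arom mice were again in Mmp3-high HAFs, at 44.2, 53.3 and 8.19 CPM, against 0 CPM in WT1 and WT3. In this group 3 UMIs would be 6.84 CPM in WT3, and the level of Arom3 rested on 6 UMIs. Dmkn-high fibroblasts were at 0 CPM in each WT mouse and 16.6, 12.3 and 0 CPM in Arom mice. The fitted log2 fold change in fibroblast-like cells was 4.15 ± 1.56 (SE), or 4.79 ± 0.97 without Arom3, and depends on the prior count because 2 WT mice were at 0.

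Lbp was a gene of fibroblasts and lymphatic endothelium. In fibroblast-like cells it was at 554.4, 456 and 451 CPM in WT and 1439, 1526 and 556.2 CPM in Arom1, Arom2 and Arom3. The genotypes did not overlap, but Arom3 exceeded WT1 by less than the spread among the WT mice. The fitted log2 fold change was 1.27 ± 0.38 (SE), or 1.64 ± 0.16 without Arom3. Lymphatic endothelial cells had 513, 434 and 446 CPM in WT and 727, 628 and 551 CPM in Arom mice, again without overlap.

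In each fibroblast group compared, Lbp in Arom1 and Arom2 was above every WT mouse with a level, by the least in Esr1-high HAFs. Dmkn-high fibroblasts had 648, 316 and 385 CPM in WT and 2868, 2933 and 598 CPM in Arom mice. Mmp3-high HAFs had 1034 and 923 CPM in WT1 and WT3 and 2841, 2759 and 872 CPM in Arom mice. Cluster 0 fibroblasts had 546, 431 and 392 CPM in WT and 1684, 1252 and 830 CPM in Arom mice and the remaining fibroblast-like cells 580, 756.5 and 763 CPM in WT and 1203, 911 and 1030 CPM in Arom mice. In both of these Arom3 was above all WT mice. Esr1-high HAFs had 147, 277 and 218 CPM in WT and 325, 325 and 160 CPM in Arom mice, where Arom3 lay inside the WT range. Fibroblast-like cells held 68.2% to 83.6% of Lbp UMIs in WT and 79.1% to 91.7% in Arom mice. In mesothelial cells Lbp was at 218, 98.8 and 153 CPM in WT and 284, 235 and 204 CPM in Arom mice, where Arom3 fell below WT1 (log2 fold change 0.71 ± 0.26, or 0.82 ± 0.27 without Arom3).

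Endothelial Lbp was highest in 1 cluster. Over all endothelial cells it was at 91.6, 51.5 and 60.6 CPM in WT and 269, 181 and 178 CPM in Arom mice, without overlap and with a fitted log2 fold change of 1.63 ± 0.24 (SE) or 1.73 ± 0.25 without Arom3. The cluster led by Ackr1, Selp and Sele, genes of venular endothelium that recruit leukocytes, had 313, 324 and 292 CPM in WT and 439, 353.8 and 379 CPM in Arom mice, and each other endothelial cluster had at most 81.3 CPM. The Ackr1 cluster was 14.60%, 7.314% and 12.08% of endothelial cells in WT and 41.46%, 30.34% and 28.56% in Arom mice, whereas the capillary cluster led by Car4 was 32.7%, 44.1% and 31.8% in WT and 15.1%, 19.7% and 20.1% in Arom mice. The Ackr1 cluster was the most numerous in each Arom mouse and in no WT mouse, and within the Ackr1 cluster the genotypes were closer than over all endothelial cells. Smooth muscle cells and pericytes had 19.8, 24 and 8.49 CPM in WT and 69.8, 160 and 91.9 CPM in Arom mice, without overlap, and the fitted log2 fold change of Lbp was 2.54 ± 0.35 there. Fibroblast markers were higher in each Arom mouse in both cell types (204 to 336 CPM in WT and 458 to 627 CPM in Arom endothelial cells, 2356 to 4437 CPM in WT and 4578 to 6622 CPM in Arom smooth muscle cells), and their part in Lbp was not tested.

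Hp was highest in neutrophils, which store haptoglobin in their granules, but there were only 112 of them. With 10 or more neutrophils in only 3 mice, the level was 500 CPM in WT2 and 1041 and 1407 CPM in Arom1 and Arom2. These levels rest on 10, 23 and 58 cells with 12, 24 and 89 Hp UMIs, so the genotypes are not compared in them. In fibroblast-like cells Hp was at 5.47, 0.251 and 0.238 CPM in WT and 40.2, 58.4 and 0.222 CPM in Arom1, Arom2 and Arom3. Arom3 was below every WT mouse, and the fitted log2 fold change was 3.89 ± 1.66 (SE), or 4.44 ± 0.89 without it. Neutrophil markers summed to at most 2.22 CPM in fibroblast-like cells.

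In mesothelial cells Hp had no UMI in any WT mouse and 37.1, 206 and 0.0978 CPM in Arom1, Arom2 and Arom3. Against the 3 counts that a zero over the WT mice allows, 0.642 CPM, the Arom mean of 80.9 CPM was at least 126-fold higher, a bound that rests mostly on Arom2. Without Arom2 the mean was 18.6 CPM and the bound 28.9-fold, and Arom3 by itself was below 0.642 CPM. The share of Hp UMIs in mesothelial cells was 8.69%, 38.2% and 2.70% in Arom mice. Fibroblast-like cells held 75.9%, 19.4% and 14.8% in WT, out of only 232, 31 and 27 UMIs, and 76.0%, 58.4% and 29.7% in Arom mice, out of 3486, 7120 and 37 UMIs. Mmp3-high HAFs had 163 and 152 CPM in Arom1 and Arom2 and 1.37 CPM in Arom3, against 16.8 and 2.28 CPM in WT1 and WT3. Dmkn-high fibroblasts had 53.4, 110 and 0.132 CPM in Arom mice and 13.03, 0 and 0 CPM in WT mice.

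Lcn2 was a gene of neutrophils, lymphatic endothelium and mesothelium in both genotypes, and of fibroblasts in 2 Arom mice. Neutrophils had 667 CPM in WT2 and 1345 and 1392 CPM in Arom1 and Arom2, from 16, 31 and 88 UMIs in 10, 23 and 58 cells. Lymphatic endothelial cells had 657, 449 and 471 CPM in WT and 595, 445 and 608 CPM in Arom mice, and mesothelial cells 256, 101 and 140 CPM in WT and 250, 194 and 175 CPM in Arom mice. The genotypes overlapped in both. The fitted log2 fold change in mesothelial cells was 0.40 ± 0.31 (SE), or 0.51 ± 0.33 without Arom3.

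In fibroblast-like cells Lcn2 was at 18.2, 6.396 and 12.6 CPM in WT and 98.9, 63.9 and 7.56 CPM in Arom1, Arom2 and Arom3. Arom1 and Arom2 were above every WT mouse and Arom3 lay inside the WT range. For Lcn2 the fitted log2 fold change was 2.20 ± 0.86 (SE), or 2.73 ± 0.41 without Arom3. Mmp3-high HAFs had 37.0 and 13.7 CPM in WT1 and WT3 and 303, 171 and 41.0 CPM in Arom mice. WT2 had no level there, and the level of WT3 rested on 6 UMIs. That of Arom3 rested on 30 UMIs in 52 cells and was close to that of WT1. Esr1-high HAFs had 55.3, 17.1 and 62.1 CPM in WT and 44.97, 28.5 and 5.13 CPM in Arom mice. Fibroblast-like cells held 30.0%, 11.8% and 19.7% of Lcn2 UMIs in WT and 68.6%, 58.2% and 11.0% in Arom mice. Lymphatic cells held 34.0%, 54.6% and 50.8% in WT and 3.86%, 3.93% and 26.3% in Arom mice, and mesothelial cells held 52.5% in Arom3.

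Lrg1 was the endothelial gene of the 7. In endothelial cells it was at 363, 150 and 284 CPM in WT and 1294, 909 and 759 CPM in Arom1, Arom2 and Arom3, and every Arom mouse was above every WT mouse. For Lrg1 the fitted log2 fold change was 1.90 ± 0.31 (SE), or 2.05 ± 0.31 without Arom3. The venular cluster led by Ackr1, Selp and Sele had 1261, 961 and 1433 CPM in WT and 2069, 1755 and 1630 CPM in Arom mice, which did not overlap. Its larger share of endothelial cells in Arom mice, given above, moved with the level over all endothelial cells.

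In the other 4 endothelial clusters Lrg1 was lower. The cluster led by Cytl1 had 22.6, 5.54 and 7.87 CPM in WT and 183, 172 and 46.5 CPM in Arom mice. The cluster led by Slc1a1 had 17.6, 8.46 and 16.8 CPM in WT and 211, 150 and 29.9 CPM in Arom mice, and that led by AY036118, Fabp4 and Isg15 had 115, 67.6 and 104 CPM in WT and 320, 234 and 242 CPM in Arom mice. The genotypes did not overlap in these 3. The Car4 cluster had 17.5, 5.40 and 4.07 CPM in WT and 68.7, 46.3 and 15.02 CPM in Arom mice, where Arom3 fell below WT1. Lymphatic endothelial cells had 302, 212 and 255 CPM in WT and 365, 425 and 368 CPM in Arom mice, without overlap. Fibroblast-like cells had 1.52, 0.502 and 1.25 CPM in WT and 19.9, 15.7 and 1.93 CPM in Arom mice, with 85.9, 55.0 and 1.37 CPM in the Mmp3-high HAFs of Arom mice, and the fitted log2 fold change in fibroblast-like cells was 3.51 ± 0.89 (SE) or 4.03 ± 0.34 without Arom3.

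**Figure D3:**
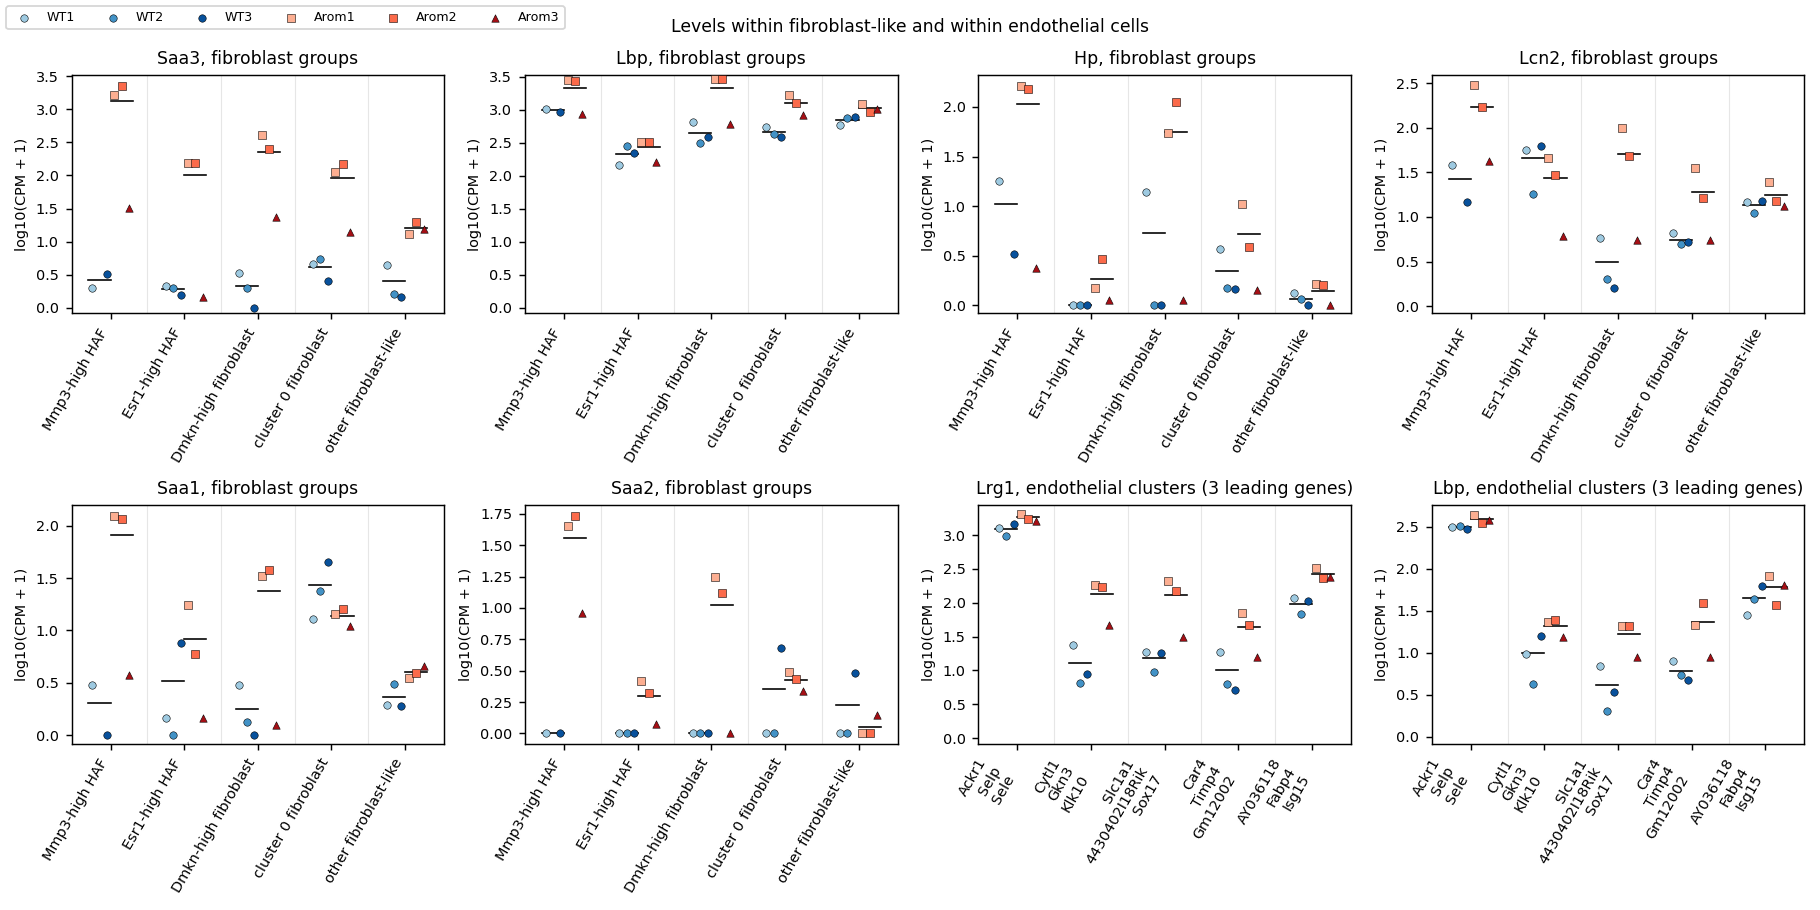
Levels (y axis, log10 of CPM + 1) within 5 groups of fibroblast-like cells and, for Lrg1 and Lbp, within endothelial clusters named by their 3 leading genes (x axis), with 1 point per mouse and lines for the mean of a genotype. Lbp in the Dmkn-high fibroblasts of Arom1 and Arom2 was at 2868 and 2933 CPM, and Lrg1 was highest in the Ackr1 cluster in every mouse.

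Over the 7 genes, 3 of 7 in fibroblast-like cells (Saa3, Lbp, Lrg1) had every Arom mouse above every WT mouse, beside 21.0% of all genes tested there. In endothelial cells it was 3 of the 4 genes that passed the filter on low counts (Saa3, Lbp, Lrg1), beside 18.6% of all genes. In mesothelial cells it was 0 of 4, beside 10.3%, and in smooth muscle cells 1 of 1 (Lbp), beside 15.8%. Saa1, Saa2 and Hp were under the filter in mesothelial and endothelial cells. Nothing is read from these counts, since the genes were chosen on this contrast.

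**Figure D4:**
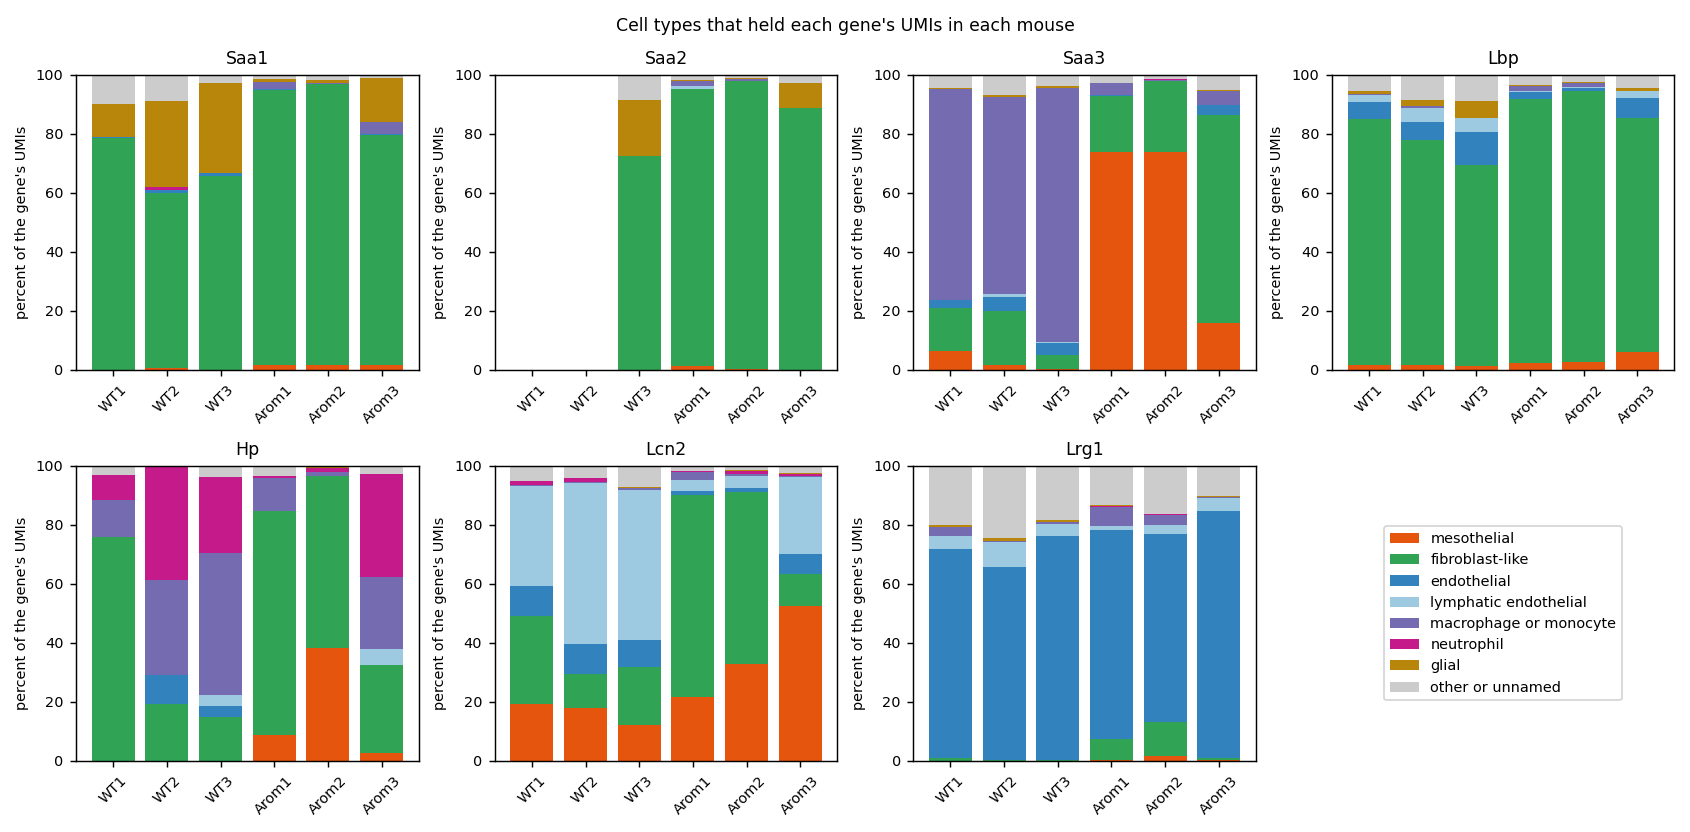
Percent of each gene's UMIs (y axis) that each cell type held in each mouse (x axis), where Saa2 had no UMI in WT1 and WT2. Saa3 UMIs were mostly in macrophages in WT mice (66.8% to 86.2%) and mostly in mesothelial cells in Arom1 and Arom2 (73.8% each).

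With cell types ordered by the mean level of all mice, few neighbours differed by more than the sum of their SDs. Those that did were neutrophils above mesothelial cells for Hp, and neutrophils above lymphatic endothelial cells, these above mesothelial cells, and these above fibroblast-like cells for Lcn2. For Saa1, Saa2, Saa3, Lbp and Lrg1, no neighbouring cell types differed by more than the sum of their SDs, which were taken over the mice of both genotypes and so hold the difference between them. Within mice, Lbp was higher in fibroblast-like than in lymphatic endothelial cells and Saa1 higher in fibroblast-like than in T cells in 6 of 6 mice.

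The genes whose levels went most closely with each of the 7 differed from gene to gene. Over 63 sums of a cell type in a mouse, which share mice and depth, Lbp went with Serpina3n (r = 0.833), an acute-phase protease inhibitor, and with Plod1 (r = 0.773) and Cthrc1 (r = 0.771), genes of collagen-producing cells. Lrg1 went with Selp (r = 0.833), Sox7 (r = 0.821) and Rasip1 (r = 0.814), genes of endothelium. Hp went with Mcemp1 (r = 0.805), Il1r2 (r = 0.797) and Arg2 (r = 0.786). Lcn2 went with Dusp1 (r = 0.782), 6430548M08Rik (r = 0.765) and Grina (r = 0.760). Saa3 went with Plac8 (r = 0.717), Trem2 (r = 0.709) and Serpinb2 (r = 0.709), Saa1 with Adamtsl2 (r = 0.776), Gpm6b (r = 0.747) and Sfrp5 (r = 0.744), and Saa2 with Ammecr1 (r = 0.527), Cthrc1 (r = 0.507) and Spon2 (r = 0.505). Among the 7 themselves, Saa3 and Hp had r = 0.631 and Saa1 and Saa2 r = 0.561, against 0.192 for Saa1 and Saa3.

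Other genes of the acute phase, its inducers and the receptors of the 7 proteins were tested between genotypes by the quasi-likelihood test of edgeR. It was run on the sum of UMIs in each mouse, and p-values were adjusted by Benjamini-Hochberg across the whole table. The p-values rest on the spread among 3 mice per genotype. In fibroblast-like cells 13.3% of 14028 genes were called (7.29% higher and 5.97% lower in Arom), and the median log2 fold change of all genes was near 0.

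Of 26 other acute-phase genes, 18 were in the table and 15 passed the filter in fibroblast-like cells. None was called higher, 4 were higher at an unadjusted p under 0.05, and DESeq2 called 2 higher (Serpina3n and C4b). Itih4, which encodes a plasma protein, fell by 1.56 ± 0.37 on the log2 scale (edgeR adjusted p = 0.0395). Its level was low, at 0.358 to 0.585 CPM in WT and 0.152 to 0.161 CPM in Arom mice. Endothelial cells, a smaller share of the barcodes in Arom mice, had 1.58 to 2.01 CPM of it in WT and 2.37 to 2.62 CPM in Arom mice. The part of RNA from other cells in this fall was not tested. The median log2 fold change of the list was 0.20. Without Arom3, 9 of 17 were called higher, among them Serpina3n, C3, C4b, Cfb and Ptx3, and 3 lower (Itih4, Mt1 and Mt2), beside 29.4% of all genes. C4b and Serpina3n have close copies in the mouse genome, so their reads may be shared with those.

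Of 32 inducing cytokines, receptors and transducers, 30 were tested in fibroblast-like cells, and 3 rose and 5 fell. Il1b, the cytokine interleukin 1 beta, was at 0.195, 0.366 and 0.352 normalized CPM in WT and 3.07, 1.78 and 1.06 in Arom mice and rose by 2.72 ± 0.50 on the log2 scale (edgeR adjusted p = 0.0252). The 9 macrophage markers, none of them at 0, summed to 12.4, 11.4 and 12.8 CPM in fibroblast-like cells of WT mice and to 39.6, 20.8 and 22.1 CPM in those of Arom mice, and their part in Il1b, which macrophages also make, was not tested. Tnfaip3, an inhibitor of NF-kB signaling, rose by 1.43 ± 0.30 (edgeR adjusted p = 0.0322), and Il11, a cytokine that acts through gp130, by 1.51 ± 0.39 (edgeR adjusted p = 0.0468). Socs3, the feedback inhibitor of STAT3, was at 778, 518 and 531 normalized CPM in WT and 204, 134 and 349 in Arom mice and fell by 1.42 ± 0.35 (edgeR adjusted p = 0.0435). Cebpd, a C/EBP factor of the acute phase, was at 2264, 1832 and 2063 normalized CPM in WT and 812, 583 and 1275 in Arom mice and fell by 1.21 ± 0.28 (edgeR adjusted p = 0.0380). For both genes the 3 Arom mice lay below the 3 WT mice. The smaller share of cluster 0 fibroblasts in Arom1 and Arom2 moved with these levels, and its part in them was not tested. Within each of the 5 groups compared, the Arom mice lay below the WT mice with a level. Cluster 0 fibroblasts of Arom mice included the cluster led by Ahsg, nearly absent from WT mice, and its part in these levels was not tested. Socs3 was at 981, 537 and 562 CPM in cluster 0 fibroblasts of WT and 345, 231 and 434 CPM in those of Arom mice, and at 732, 819 and 702 CPM in Esr1-high HAFs of WT and 115, 81.4 and 282 CPM in those of Arom mice. For Cebpd the smallest gap was in Esr1-high HAFs, with 1355, 590 and 1287 CPM in WT and 438, 363 and 579 CPM in Arom mice.

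Il6 (log2 fold change -0.30 ± 0.20, edgeR adjusted p = 0.331), Stat3 (-0.36 ± 0.13, 0.0967), Cebpb (-0.45 ± 0.18, 0.137), Nfkbia (0.05 ± 0.17, 0.875) and Il6st (-0.00 ± 0.10, 0.989), which encodes gp130, did not pass in fibroblast-like cells. Among 15 receptors and binding partners, 3 rose and 2 fell. Cd14, the partner of Lbp, rose by 1.03 ± 0.27 (edgeR adjusted p = 0.0480), Tgfbr2, a TGF-beta receptor, by 1.19 ± 0.21 (edgeR adjusted p = 0.0232), and Tgfb1 by 0.62 ± 0.09 (edgeR adjusted p = 0.0200), while Cd36, a scavenger receptor that binds serum amyloid A, fell by 1.01 ± 0.17 (edgeR adjusted p = 0.0228). Cd14 is also a gene of macrophages, whose markers, given above, moved with it. Cd36 was also among the leading genes of the 329 fibroblast-like cells with endothelial genes named above, and the part of these cells in its fall was not tested. Within the study's own limits on barcodes, 1 gene of all tested was called in fibroblast-like cells. Il1b and Itih4 were not tested there. Of the others named, Tgfb1, Cd36, Tnfaip3 and Il11 had log2 fold changes of 0.12, -0.30, 0.21 and 0.59 (edgeR adjusted p = 0.723, 0.461, 0.590 and 0.398), and Cd14, Tgfbr2, Socs3 and Cebpd had 0.82, 1.37, -0.93 and -0.81 (edgeR adjusted p = 0.327, 0.167, 0.211 and 0.208). Without Arom1, Arom2, WT2 or WT3 the fit in fibroblast-like cells called 3, 22, 8 and 5 genes in all and none of the 3 lists, and without WT1 it called 164 genes and 1 of the receptors.

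In mesothelial cells, where 0.335% of 11650 genes were called (0.292% higher and 0.0429% lower in Arom), C4b, a complement component, was at 318, 269 and 178 normalized CPM in WT and 1189, 864 and 906 in Arom mice. It rose by 1.91 ± 0.23 on the log2 scale (edgeR adjusted p = 0.0276), and Arom3 was among the raised mice here. Fibroblast markers in mesothelial cells were also higher in each Arom mouse, at 16880, 16560 and 17920 CPM in WT and 20340, 19800 and 20630 CPM in Arom mice, and their part was not tested. It was the only one of 12 acute-phase genes called, with a median log2 fold change of 0.97 for the list against -0.00 for all genes. None of 28 inducers was called by edgeR, where 11 were higher and 3 lower at an unadjusted p under 0.05 and DESeq2 called 6 higher. None of 14 receptors was called by edgeR, where 0 were higher and 1 lower at an unadjusted p under 0.05 and DESeq2 called 1 lower. Without Arom3, 6 of 12 acute-phase genes and 11 of 28 inducers were called higher. Of all 10438 genes tested in that fit, 807 were called higher and 591 lower, 13.4% in either direction. With any one of the other 5 mice left out, no gene was called in mesothelial cells.

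For the genes given whatever their test, the log2 fold change in mesothelial cells was 0.95 ± 0.37 for Il6 (edgeR adjusted p = 0.196), -0.77 ± 0.25 for Socs3 (edgeR adjusted p = 0.149), 0.66 ± 0.24 for Nfkbia (edgeR adjusted p = 0.175), 0.82 ± 0.45 for Cd14 (edgeR adjusted p = 0.342) and -0.42 ± 0.38 for Cebpd (edgeR adjusted p = 0.587). Il6st (-0.35 ± 0.17), Stat3 (-0.01 ± 0.18) and Cebpb (0.06 ± 0.21) did not pass either.

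In endothelial cells, 14.3% of 12085 genes were called (8.32% higher and 5.97% lower in Arom), or 24.1% with the replicate number as a block. Of 14 acute-phase genes 6 rose and none fell, of 30 inducers 12 rose and 2 fell, and of 15 receptors 6 rose and 1 fell. With the block, 7, 17 and 7 rose and 0, 4 and 1 fell, and without Arom3, 5, 9 and 7 rose and 0, 2 and 1 fell, beside 13.7% of all genes. Without 1 of the other mice, between 3 and 6 acute-phase genes, 4 and 8 inducers and 3 and 5 receptors were called higher. The medians of the lists were 0.68, 0.43 and 0.50 on the log2 scale, against -0.01 for all genes.

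C4b rose by 2.45 ± 0.41 on the log2 scale in endothelial cells (edgeR adjusted p = 0.00789), Ptx3, a pentraxin of local inflammation, by 2.15 ± 0.46 (edgeR adjusted p = 0.0175), C3 by 2.08 ± 0.31 (edgeR adjusted p = 0.00583) and Tnfaip6 by 1.36 ± 0.31 (edgeR adjusted p = 0.0196). Cd14 was at 28.1, 10.8 and 17.4 normalized CPM in WT and 138, 77.3 and 28.7 in Arom mice and rose by 2.15 ± 0.50 (edgeR adjusted p = 0.0227), with Arom3 just above WT1. Macrophage markers, none at 0, summed to 23.0, 16.1 and 12.2 CPM in endothelial cells of WT and 56.6, 36.5 and 20.9 CPM in those of Arom mice. Fibroblast markers summed there to 336, 243 and 204 CPM in WT and 458, 522 and 627 CPM in Arom mice. The part of the first in Cd14 and Il1b, and of the second in C4b, Ptx3 and C3, was not tested. Tlr4, the partner of Cd14 in lipopolysaccharide sensing, rose by 0.88 ± 0.15 (edgeR adjusted p = 0.00842). Tlr2, a receptor of serum amyloid A, rose by 1.21 ± 0.21 (edgeR adjusted p = 0.00831), and Tgfbr2 by 0.72 ± 0.11 (edgeR adjusted p = 0.00656).

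Among the inducers in endothelial cells, Il1b rose by 2.41 ± 0.65 (edgeR adjusted p = 0.0374), Lif by 1.67 ± 0.44 (edgeR adjusted p = 0.0331), the IL-1 receptor gene Il1r1 by 1.14 ± 0.19 (edgeR adjusted p = 0.00727) and Il6st by 1.02 ± 0.18 (edgeR adjusted p = 0.00945), while Tnf fell by 1.19 ± 0.12 (edgeR adjusted p = 0.00219). Il6 (0.82 ± 0.26, edgeR adjusted p = 0.0645), Cebpd (0.49 ± 0.22, 0.165), Socs3 (-0.53 ± 0.22, 0.131), Nfkbia (0.24 ± 0.19, 0.439), Stat3 (0.19 ± 0.13, 0.319) and Cebpb (0.07 ± 0.11, 0.686) did not pass. With the replicate number as a block, Il6 (edgeR adjusted p = 0.000886), Cebpd (0.00435) and Socs3 (0.0135) were called, with log2 fold changes of 0.77, 0.49 and -0.54, and Il6 was called in 5 of 15 alternatives in all. The larger share of the venular cluster in Arom mice moved with these levels too, and its part in them was not tested.

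**Figure D5:**
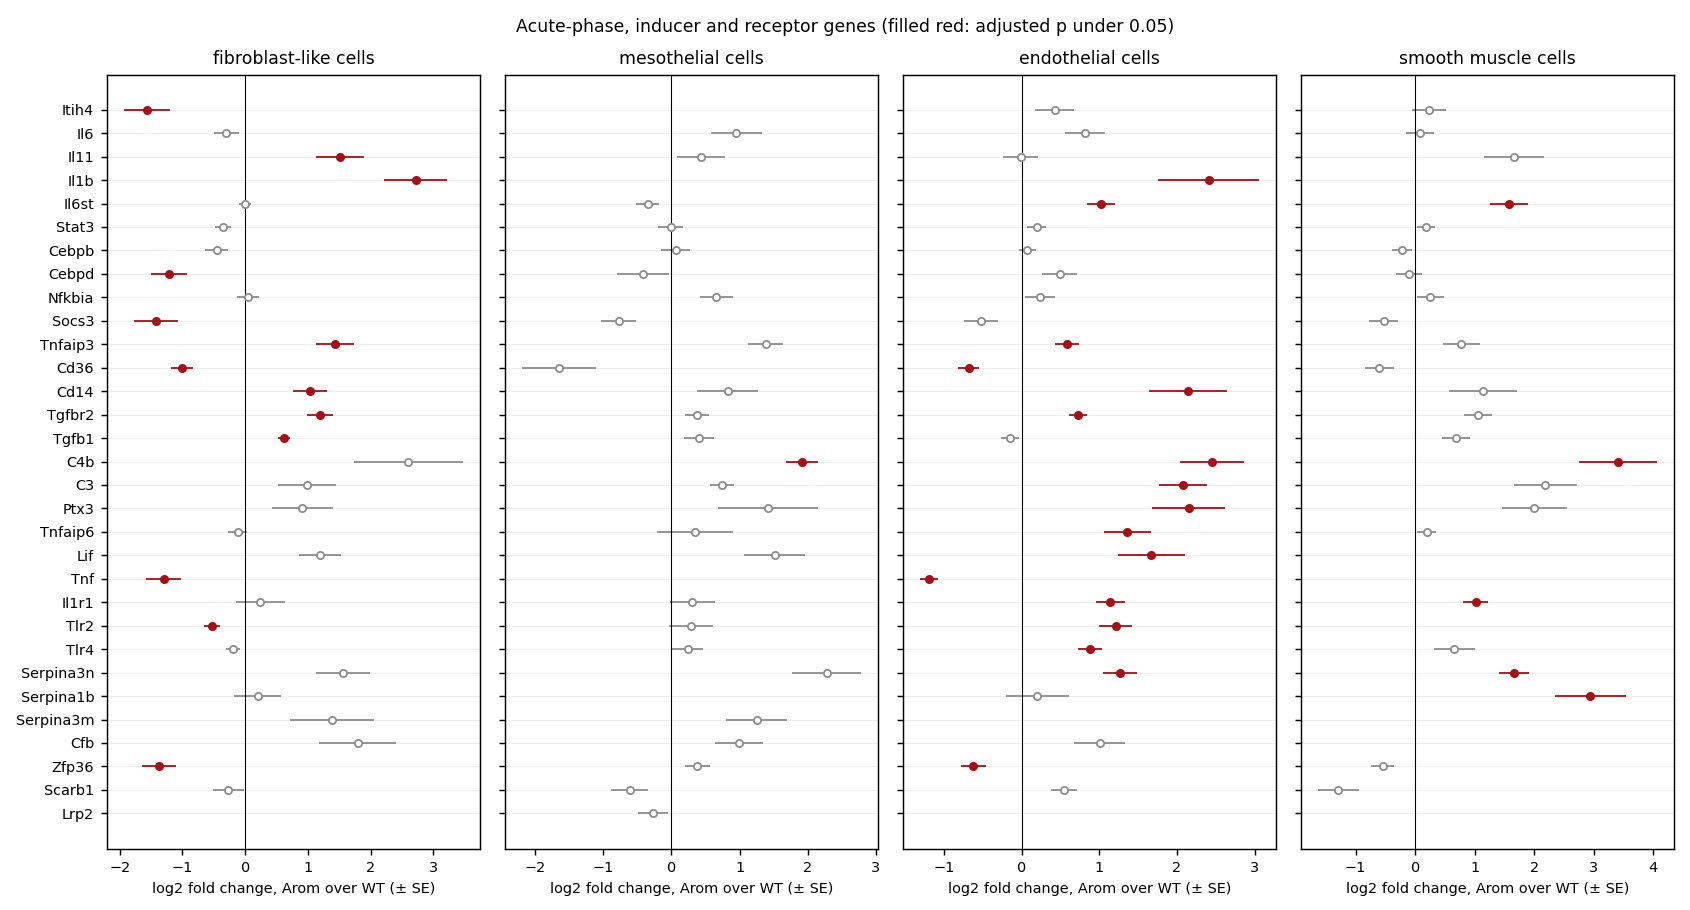
Log2 fold change (x axis, Arom over WT, with its SE as bars) of acute-phase, inducer and receptor genes (y axis) in 4 cell types, where filled red points had an edgeR adjusted p under 0.05. C4b was called in mesothelial (1.91), endothelial (2.45) and smooth muscle cells (3.41), and Socs3 in fibroblast-like cells (-1.42).

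In smooth muscle cells and pericytes, where 1.46% of 9388 genes were called (1.13% higher and 0.33% lower in Arom), C4b rose by 3.41 ± 0.66 on the log2 scale (edgeR adjusted p = 0.0364), Serpina1b by 2.94 ± 0.60 (edgeR adjusted p = 0.0409) and Serpina3n by 1.66 ± 0.25 (edgeR adjusted p = 0.0200), which were 3 of 12 acute-phase genes. Il6st (1.58 ± 0.32, edgeR adjusted p = 0.0409) and Il1r1 (1.02 ± 0.21, edgeR adjusted p = 0.0453) were the 2 of 26 inducers that rose. Fibroblast markers, none at 0, summed to 4437, 4151 and 2356 CPM in these cells of WT mice and to 6622, 6596 and 4578 CPM in those of Arom mice, without overlap, and their part in these calls was not tested. Of 10 receptors none was called by edgeR, with 4 higher and 2 lower at an unadjusted p under 0.05, and DESeq2 called 1 higher. Without WT2, WT3, Arom1 or Arom2, none of the 3 lists kept a call there, and without WT1 only 2 acute-phase genes did.

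Over whole samples, where 23.6% of 15334 genes were called (12.4% higher and 11.2% lower in Arom), 5 of 15 acute-phase genes rose, C4b the most at 3.09 ± 0.83 on the log2 scale (edgeR adjusted p = 0.0440), followed by Cfb at 2.499 ± 0.58 (edgeR adjusted p = 0.0307), Serpina3m at 2.21 ± 0.61 (edgeR adjusted p = 0.0470) and Serpina3n at 2.16 ± 0.50 (edgeR adjusted p = 0.0311). Whole samples mix the levels within cells with the number of cells of each type. Of 32 inducers 2 rose and 4 fell, with Socs3 at -1.11 ± 0.30 (edgeR adjusted p = 0.0453), and of 17 receptors 2 rose and 2 fell, with Cd36 at -1.96 ± 0.27 (edgeR adjusted p = 0.0179). Without WT2, WT3, Arom1 or Arom2 the fit of whole samples called at most 2 genes, and without Arom3 it called 4877 (31.1% of those tested).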

How the data were processed

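Single-cell RNA-Seq libraries of lower abdominal muscle from 3 WT and 3 Arom mice were analysed. The authors deposited 1 table of raw UMI counts, 16494 genes by 63647 barcodes, made with Cell Ranger (version 3.0.2) against mm10 with human CYP19A1. Counting by UMI at the 3′ end means that transcripts with alike ends share reads. Groups came from the sample labels. The members and all gene lists were chosen with earlier results of these data known.

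Every deposited barcode was used. The limits stated by the study (200 to 2500 genes, at least 1000 UMIs, at most 5% mitochondrial UMIs) would keep 18852 of 63647 barcodes, so they form an alternative. Clusters were rebuilt with scanpy (1.11.5) from 2000 variable genes, 30 principal components, 20 neighbors and Leiden resolution 0.8 (33 clusters), with 74 genes (members, pathway genes) kept out, and named only where at least 3 fixed markers were raised. The deposited table holds no cell names, so differences from the study may come from rebuilt names. Doublets (5.71% to 9.82% of barcodes by score) were left out in an alternative only.

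CPM is the UMIs of a gene per 1000000 UMIs of that cell type in that mouse, for cell types with at least 10 cells, and normalized CPM uses TMM library sizes. Shares of cells were compared after thinning to 1000 UMIs, which left out 2444 WT and 1967 Arom barcodes. The limit for a count of 0 is 3 UMIs. This limit covers counting error only.

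UMIs summed per mouse were fitted over all genes with edgeR (4.0.16, quasi-likelihood test, TMM, filterByExpr) in R (4.3.3), with a threshold of 0.05 on the Benjamini-Hochberg adjusted p. The SE was the fold change over the square root of F. The fit was first tested on simulated counts. DESeq2 (1.42.0) was an alternative, beside other size factors, no filter, each mouse left out, a replicate block, other barcode limits, doublets removed, another resolution and, chosen after seeing the data, cell types from unlabelled column blocks of the table.

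The study processed its tissues on separate dates, a WT mouse and an Arom littermate on each. No label states which mice formed these pairs, and samples with the same number may share a date. Deviations of same-numbered mice correlated in endothelial cells (r = 0.239, 0.158 and 0.323), where the replicate block is given beside the counts. In smooth muscle cells each pair was also positive but weaker (r = 0.175, 0.0691 and 0.239). The number of genes called with the block there is given in the closing section. In the other fits WT2 and Arom2 had a negative r. The genes named were the 7 members, at most 4 called genes of largest change per list and fit, Il6, Il6st, Stat3, Cebpb, Cebpd, Socs3, Nfkbia and Cd14 whether called or not, and the 3 genes of at least 10 CPM most correlated with each member on log2(CPM + 1). Genes called without Arom3 or by DESeq2, and Itih4 and Tlr2 in the closing section, were named after their values were seen.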

Additional observations from a re-analysis of the deposited data

Results flagged for a closer look

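Itih4, a plasma protein gene, and Tlr2, a receptor of serum amyloid A, had all 3 Arom mice on opposite sides of the WT mice in fibroblast-like and in endothelial cells. Itih4 was at 0.435, 0.585 and 0.358 CPM in the fibroblast-like cells of WT1, WT2 and WT3 and at 0.152, 0.155 and 0.161 CPM in those of Arom1, Arom2 and Arom3, a ratio of the Arom to the WT mean of 0.339. In endothelial cells it was at 1.94, 1.58 and 2.01 CPM in WT and 2.62, 2.38 and 2.37 CPM in Arom mice, a ratio of 1.331. Tlr2 was at 14.7, 16.0 and 12.3 CPM in WT and 10.3, 9.30 and 10.6 CPM in Arom fibroblast-like cells, a ratio of 0.701, and at 10.8, 10.3 and 11.0 CPM in WT and 31.2, 16.6 and 25.0 CPM in Arom endothelial cells, a ratio of 2.27. The difference between the cell types was not tested for either gene, and the fibroblast groups and endothelial clusters changed their shares in the same mice. Endothelial cells were 31.4%, 35.9% and 39.2% of barcodes in WT and 18.3%, 13.2% and 24.6% in Arom mice. The part of their RNA in the low Itih4 level of fibroblast-like cells was not tested.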

How the results depend on the processing

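The number of genes called depended strongly on the mice in the fit. Leaving out 1 mouse gave 3 to 4151 genes in fibroblast-like cells (1860 with all mice), 0 to 1398 in mesothelial cells (39), 466 to 1688 in endothelial cells (1728), 5 to 986 in smooth muscle cells (137) and 0 to 4877 in whole samples (3612), and the highest count was always without Arom3. DESeq2 called 2957, 636 and 266 genes in fibroblast-like, mesothelial and smooth muscle cells. Without a filter on low counts, 142 genes were called in mesothelial and 483 in smooth muscle cells, and without doublets 191 in mesothelial cells. Within the limits of the study, 1 gene was called in fibroblast-like cells, 793 in endothelial cells and 0 in smooth muscle cells and whole samples, with fewer cells in each sum, and mesothelial cells could not be fitted because a mouse had under 10 of them. With at most 5% mitochondrial UMIs alone, 0 were called in smooth muscle cells and 2394 in whole samples, and with cell types from the column blocks 341 in smooth muscle cells. The replicate block gave 1559 genes in fibroblast-like cells, 430 in mesothelial cells, 2914 in endothelial cells, 610 in smooth muscle cells and 3999 in whole samples. Each pair of same-numbered mice had a positive r in endothelial and in smooth muscle cells (r = 0.175, 0.0691 and 0.239 in the latter). In the other fits not every pair did (r = 0.195, -0.114 and 0.169 in fibroblast-like cells). Where the counts differed the cause was not tested beyond the number of samples, genes or cells that a setting leaves.

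For the 7 genes, 295 levels and 270 shares moved by at most the SD between the mice of a genotype under an alternative, and 12 and 34 moved by more. These counts include the fits that left out 1 mouse, which could not move a mean by more than that SD, so they are no check there. Of the fold changes, 301 moved by at most the SE of the fit and 22 by more. Among the shares that moved by more, that of Saa2 UMIs in fibroblast-like cells of Arom mice went from 93.2% to 99.5% within the limits of the study. That of Lrg1 in endothelial cells went from 72.8% to 85.0% there. For the other genes named, 795 results kept their direction and their side of the threshold, 194 lost the call, 19 gained it, and 44 changed direction, of which 0 were called in either fit. The log2 fold changes that changed direction belonged to 14 results. In fibroblast-like cells that of Il6st (-0.0025) became 0.00023 with RLE size factors, 0.00030 with DESeq2, 0.0046 without a filter on low counts, 0.18 within the limits of the study, 0.0061 without doublets, 0.0070 at Leiden resolution 1.2 and 0.0043 with the column blocks, and that of Nfkbia became -0.28 within the limits and -0.018 with at most 5% mitochondrial UMIs. In mesothelial cells Stat3 became 0.023 without a filter on low counts, 0.00046 with the replicate block and 0.18 without doublets, and Cebpb -0.032 with at most 5% mitochondrial UMIs. In endothelial cells Stat3 became -0.0021 and Cebpb -0.28 with the column blocks, and Cebpb -0.0017 within the limits and -0.029 with at most 5% mitochondrial UMIs. In smooth muscle cells Il6 became -0.35 and Stat3 -0.18 within the limits, and with at most 5% mitochondrial UMIs Il6 became -0.28, Stat3 -0.34 and Nfkbia -0.31. In whole samples Il6 became 0.027 within the limits and Il6st -0.028 with at most 5% mitochondrial UMIs. Leaving out 1 mouse gave -0.085 to 0.051 for Il6st and -0.093 to 0.20 for Nfkbia in fibroblast-like cells, -0.15 to 0.16 for Stat3, -0.086 to 0.24 for Cebpb and -0.76 to 0.12 for Cebpd in mesothelial cells, -0.20 to 0.31 for Il6, -0.014 to 0.44 for Nfkbia and -0.25 to 0.11 for Cebpd in smooth muscle cells, and -0.042 to 0.086 for Il6st and -0.25 to 0.0087 for Cebpb in whole samples. The cause was not tested. Saa1, Saa2, Saa3 and Hp had at most 651 UMIs in a WT mouse, so their WT levels rest on few counts.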
